A study of Mus musculus with 9 samples.

Results

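The genes described here are 6 podocyte genes, Nphs1, Podxl, Wt1, Synpo, Magi2 and Cd2ap, chosen by name from the 54532 genes counted in 9 mouse kidney RNA-seq libraries. All 6 were measured in every library and all 6 passed the filter on low counts, which 16646 genes passed in all. There were 3 groups with 3 libraries each. The first was wild type, the second Trex1-/- treated with PBS, and the third Trex1-/- treated with SN-011, both treatments lasting 2 weeks. All mice were on the C57BL/6J background, and both Trex1-/- groups are labelled as lacking Trex1, the exonuclease that removes DNA from the cytosol. SN-011 is a small molecule that blocks STING, which relays the signal of the DNA sensor cGAS. Per the study's methods, Trex1-/- mice were 1 month old at the start and received SN-011 at 10 mg/kg or vehicle (Tween 80 in PBS) by daily intraperitoneal injection. Wild-type mice were purchased at 4 to 8 weeks of age, and the sources used here do not give a treatment for them. Sex is not in the labels. The labels do not spell out whether the libraries of a group came from separate animals, so the p-values measure the spread between these libraries.

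Podocytes are the epithelial cells that wrap the glomerular capillaries. Their interlocking foot processes are bridged by the slit diaphragm, a modified cell junction that forms the last layer of the filtration barrier, and mutations in several of its genes cause nephrotic syndrome. Nphs1 encodes nephrin, the adhesion molecule that spans the slit. Magi2 encodes a scaffold and Cd2ap an adaptor, both of which bind nephrin on the inner face of the membrane and link it to the actin cytoskeleton. Podxl encodes podocalyxin, the charged sialomucin of the podocyte surface. Synpo encodes synaptopodin, an actin-binding protein of foot processes, and Wt1 encodes the transcription factor that maintains podocyte identity and binds many podocyte genes. Cd2ap and Magi2 are also used outside podocytes, Podxl is also made by vascular endothelium, and Wt1 also marks parietal epithelial cells. The comparisons ask whether the podocyte program differs in the kidney of Trex1-/- mice, and whether it differs with STING antagonism.

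In GRCm38, by the GENCODE vM21 annotation, Nphs1 lies at chr7:30458315-30487223 on the plus strand. Kirrel2, the gene of a nephrin relative, lies on the opposite strand with 624 bases between the gene bodies. Magi2 spans chr5:19227036-20704792 (plus), Cd2ap chr17:42792951-42876665 (minus), Podxl chr6:31519488-31563981 (minus) and Wt1 chr2:105126529-105173616 (plus). All 6 are protein-coding genes. Of the 6620 exonic bases of Nphs1, 780 are shared with the opposite-strand genes Nphs1os and Rps12-ps4. The strand setting of the counting was not stated, so reads of these bases could have gone to either gene or to none. Nphs1os held 1 to 4 counts and Rps12-ps4 17 to 32 counts per library. The remaining overlap was 203 bases of Magi2 with Gm29254 on the same strand, which had 0 counts in all 9 libraries.

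Because Wt1 is both a member and a regulator of podocyte genes, the sequence before the RefSeq starts of the members was searched for its binding motif. RefSeq windows (GRCm38.p6, 250 bases before the start) were at hand for 3 of the 6 members, Nphs1, Magi2 and Cd2ap. RefSeq and GENCODE place these starts differently. The RefSeq start of Nphs1 lies 1743 bases downstream of the GENCODE start, so its whole window is inside the GENCODE gene body. For Cd2ap the distance is 241 bases, with 241 of the 250 bases of the window inside the gene body, and for the Magi2 window that held a match it is 10 bases, with 10 inside. The motif was GNGTGGGNG, on both strands, and each of the 3 genes had a match in a window, compared with 12.7% of all 32851 windows of that length. The matching stretches show where the letters sit, with the motif in capitals and 10 bases on each side in lower case, read 5′ to 3′ on the strand of the gene.
Nphs1, chr7:30459821-30459849, plus strand, match starting 227 bases before the RefSeq start: gagtacctgtGAGTGGGTGagagggaggt
Magi2, chr5:19226917-19226945, plus strand, match 119 bases before the start: ctcctccccaCCCCCACGCcacccgctca
Cd2ap, chr17:42876448-42876476, minus strand, match 42 bases before the start: tccaccccccCTCCCACCCccgcctgccg
In Nphs1 the motif reads on the strand of the gene, and in Magi2 and Cd2ap it reads on the opposite strand. Magi2 has a further RefSeq start, also inside its gene body, whose window held no WT1 match and 1 GC box (GGGCGG), a sequence found in 32.7% of all windows. The core of the interferon-stimulated response element was in none of these member windows, and in 2.98% of all windows. These are matches of letters and not measured binding.

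The libraries held 16118813 to 21928965 counts, with TMM factors of 0.926 to 1.06. Trex1 itself was counted at 0 in all 9 libraries, the wild type included, so the genotype rests on the labels. Transcripts of Y-linked genes, at 153 to 188 CPM (counts scaled to a common library size), were found in wild-type replicate 3, in all 3 PBS libraries and in SN-011 replicate 2. The other 4 libraries, wild-type replicates 1 and 2 and SN-011 replicates 1 and 3, instead had Xist at 434 to 503 CPM. Each contrast with the PBS group is therefore partly a contrast of these kinds of library, and values within each kind are given beside the changes. Since these are whole kidneys, fewer podocytes and less RNA per podocyte cannot be told apart.

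Expressed per length, as reads scaled by union exon length and by library size (RPKM), the members spanned a wide range in the wild type. Podxl was the most abundant at 45.2 ± 3.17 RPKM (SD, n = 3). Synpo followed at 7.99 ± 0.324 RPKM and Cd2ap at 7.21 ± 0.421 RPKM. Nephrin transcript was lower, with Nphs1 at 4.63 ± 0.467 RPKM, and Wt1 stood at 2.35 ± 0.209 RPKM. Magi2 was lowest at 0.965 ± 0.163 RPKM. The order of the group means was the same in all 3 groups. Synpo and Cd2ap, neighbours in that order, lay within about their own spread in the PBS group, at 8.03 ± 1.41 and 7.64 ± 0.216 RPKM, and in the SN-011 group, at 10.1 ± 1.69 and 9.02 ± 0.893 RPKM. Their order also turns with the length used. Over the longest annotated transcript Cd2ap came to 20.4 RPKM and Synpo to 14.8 RPKM in the wild type, since Cd2ap has 15864 bases of union exon and a longest transcript of 5610 bases.

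**Figure D1:**
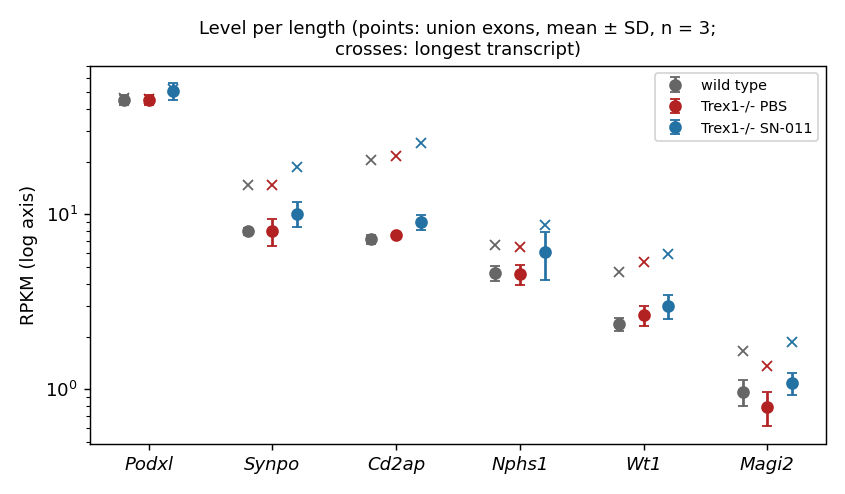
Level of each gene per length (RPKM, log axis) by group. Points and bars are the mean ± SD of 3 libraries over union exons, and crosses are means over the longest transcript. Podxl is highest and Magi2 lowest in each group, and Cd2ap passes Synpo when the longest transcript is used.

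Of the slit diaphragm genes, Nphs1 had, in CPM scaled by TMM, 34.2, 29.3 and 28.5 in wild-type replicates 1 to 3. The PBS libraries had 34.6, 28.7 and 27.1 CPM, and the SN-011 libraries 52.9, 28.7 and 38.6 CPM. The wild-type and PBS values cover almost the same range, and SN-011 replicates 1 and 3 lie above every other library while SN-011 replicate 2 lies among them. Nphs1 did not pass the test in any comparison. In PBS against wild type its change was -0.02 on the log2 scale (SE 0.194, adjusted p = 0.967), with a 95% interval of the fold from 0.729 to 1.33. In SN-011 against PBS it was 0.41 (SE 0.194, adjusted p = 0.465, interval of the fold 0.987 to 1.79), and in SN-011 against wild type 0.39 (SE 0.193, adjusted p = 0.326). Without SN-011 replicate 1 these last changes were 0.16 and 0.14, and without SN-011 replicate 2 they were 0.60 and 0.57. Both values thus rest largely on SN-011 replicate 1.

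Magi2, the nephrin scaffold, had 10.2, 13.1 and 9.6 CPM in the wild type, 10.2, 10 and 6.65 CPM with PBS, and 13.3, 10.2 and 13.1 CPM with SN-011. PBS replicate 3 was the lowest library. The PBS and SN-011 groups did not overlap, but they met at 10.2 CPM, where the SN-011 library led only beyond the digits printed here. That library rested on 176 counts, with an exact Poisson interval of -14.2% to 15.9% for counting error alone. The log2 fold change of Magi2 was -0.29 (SE 0.197, adjusted p = 0.522) in PBS against wild type, 0.45 (SE 0.197, adjusted p = 0.429) in SN-011 against PBS and 0.16 (SE 0.194, adjusted p = 0.726) in SN-011 against wild type. Without PBS replicate 3 the first of these was -0.12 and the second 0.28, and without wild-type replicate 2 the first was -0.14. The third ran from 0.07 without wild-type replicate 3 to 0.30 without wild-type replicate 2, and leaving out SN-011 replicate 1, 2 or 3 gave 0.09, 0.26 or 0.10.

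Cd2ap, the adaptor, had 117, 119 and 107 CPM in the wild type and 122, 124 and 118 CPM with PBS. With SN-011 it had 147, 155 and 127 CPM. All 3 SN-011 libraries lay above all 6 others, and it was the only member of which this held. On the log2 scale its change was 0.08 (SE 0.0937, adjusted p = 0.721) in PBS against wild type and 0.24 (SE 0.0938, adjusted p = 0.386, interval of the fold 1.02 to 1.36) in SN-011 against PBS. In SN-011 against wild type it was 0.32 (SE 0.0937, adjusted p = 0.119, interval of the fold 1.08 to 1.45), which was the smallest adjusted p among the members. Without wild-type replicate 3 the change in PBS against wild type was 0.03. In contrast to the other members, SN-011 replicate 2 was its highest library.

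Among the surface, cytoskeletal and nuclear genes, Podxl had 268, 238 and 238 CPM in the wild type, 266, 241 and 234 CPM with PBS, and 314, 255 and 266 CPM with SN-011. Replicate 1 was the highest library within each group, and the groups overlapped in all 3 comparisons. The change of Podxl between PBS and wild type was -0.01 on the log2 scale (SE 0.108, adjusted p = 0.983), and its interval of the fold ran from 0.843 to 1.17. Against PBS and against wild type, SN-011 gave 0.17 (SE 0.108, adjusted p = 0.573) and 0.17 (SE 0.108, adjusted p = 0.458). Without SN-011 replicate 1 these were 0.08 and 0.07.

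Synpo, of the foot process actin, had 77.1, 72.8 and 78.7 CPM in the wild type, 89.5, 77.4 and 62.7 CPM with PBS, and 112, 79.8 and 97.2 CPM with SN-011. The PBS libraries spread on both sides of the wild type. SN-011 did not overlap with wild type, the nearest libraries being 79.8 and 78.7 CPM, but it overlapped with PBS. On the log2 scale Synpo changed by 0.01 (SE 0.145, adjusted p = 0.989) in PBS against wild type, 0.33 (SE 0.145, adjusted p = 0.425) in SN-011 against PBS and 0.34 (SE 0.145, adjusted p = 0.26) in SN-011 against wild type. The sign of the first of these turned under other scalings and with several libraries left out. Without SN-011 replicate 1 the other two were 0.21 and 0.22, and without PBS replicate 3 the change against PBS was also 0.21.

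Wt1, the transcription factor, had 15.3, 15.4 and 13.1 CPM in the wild type, 18.6, 14.3 and 16.5 CPM with PBS, and 19.1, 15.2 and 21.0 CPM with SN-011. The groups overlapped in every comparison. In log2 units the difference of Wt1 was 0.18 (SE 0.146, adjusted p = 0.611) in PBS against wild type and 0.16 (SE 0.146, adjusted p = 0.713) in SN-011 against PBS. For SN-011 against wild type it was 0.34 (SE 0.145, adjusted p = 0.262). In PBS against wild type Wt1 was at 0.07 without PBS replicate 1 and at 0.10 without wild-type replicate 3. Its change in SN-011 against PBS was 0.07 without SN-011 replicate 3 and 0.08 without PBS replicate 2, but 0.28 without SN-011 replicate 2 and 0.26 without PBS replicate 1.

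**Figure D2:**
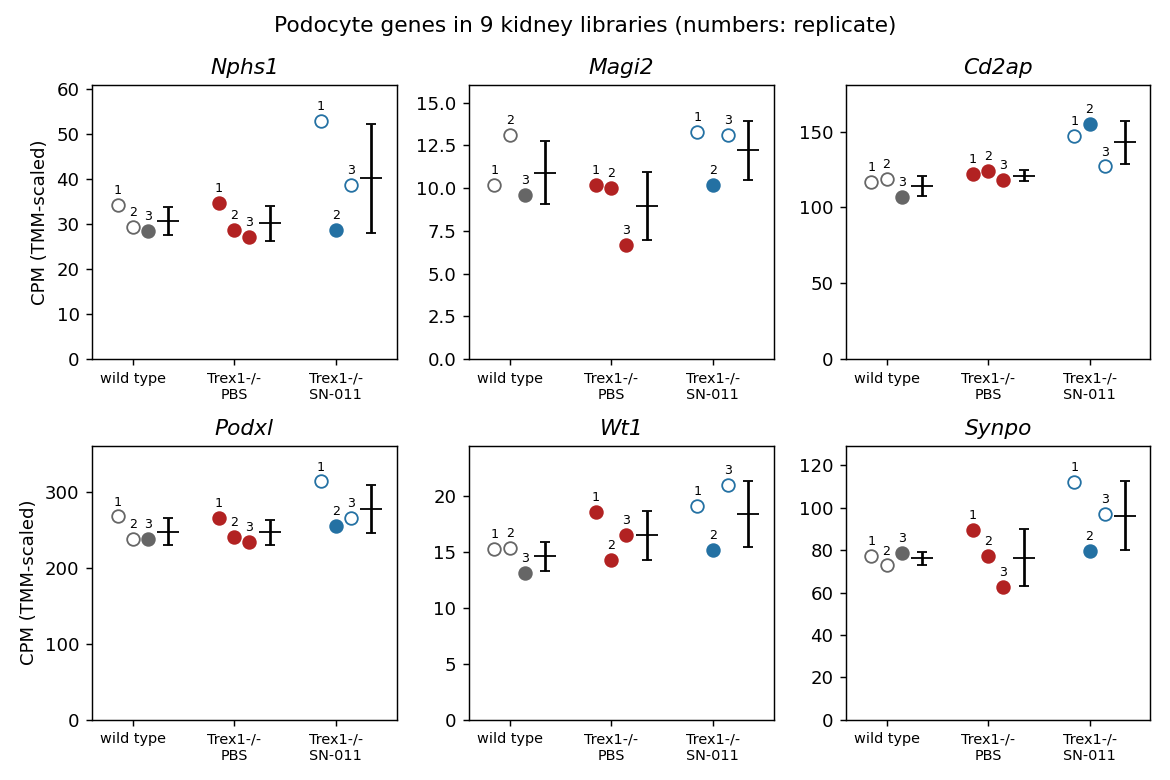
CPM of the 6 genes in each library, by group, with the replicate number above each point and the group mean ± SD (n = 3) in black. Filled points are libraries with Y-linked reads and open points those without. SN-011 replicates 1 and 3 are among the 3 highest libraries for 6 of 6 genes.

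In Trex1-/- PBS against wild type, 0 of the 6 genes were called at an adjusted p under 0.05, where 1.88% of all genes tested were called. At an unadjusted p under 0.05 the count was also 0, against 15.2% of all genes (7.63% higher and 7.58% lower), and 0 of 6 had groups that did not overlap, against 25.4%. The genes lay on both sides, with 3 fold changes above 1 and 3 below, where 50.6% of all genes were above, and their median log2 fold change was 0.00 beside 0.003 for all genes. The intervals leave room for changes up to 1.42-fold higher (Wt1) and down to a fold of 0.604 (Magi2).

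In SN-011 against PBS, which share the Trex1-/- genotype, 0 of 6 genes were called, and 0% of all genes were called as well. That background was not stable, with 519 genes called without SN-011 replicate 2, 183 by DESeq2's Wald test and 127 by edgeR's exact test, while 0 of the 6 were called in any of these. At an unadjusted p under 0.05 by edgeR, which 11.4% of all genes reached, 3 of the 6 were higher (Cd2ap, Synpo and Magi2) and 0 lower, where 5.77% of all genes were higher and 5.68% lower. All 6 fold changes were above 1, from 0.16 (Wt1) to 0.45 (Magi2) on the log2 scale. Their median was 0.29 beside -0.005 for all genes, of which 48.9% had a fold change above 1. The groups did not overlap for 2 of 6 (Magi2 and Cd2ap), against 16.1% of all genes.

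In Trex1-/- SN-011 against wild type, 0 of 6 genes were called, against 1.28% of all genes. Unadjusted, 3 of 6 were higher (Cd2ap, Synpo and Wt1), and 0 lower, where 18% of all genes passed, 9.88% as higher and 8.13% as lower. The fold changes were again all above 1, as were 49.5% of those of all genes, with a median of 0.33 on the log2 scale beside -0.003 for all genes. The groups did not overlap for Cd2ap and Synpo, against 21.7% of all genes. The comparisons share the PBS or the wild-type libraries, and both contrasts with SN-011 use the same 3 SN-011 libraries, so their values are not independent. DESeq2's Wald test, edgeR's exact test and limma-voom also called 0 of 6 in each comparison, and over all 342 values from other settings 0 were called.

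**Figure D3:**
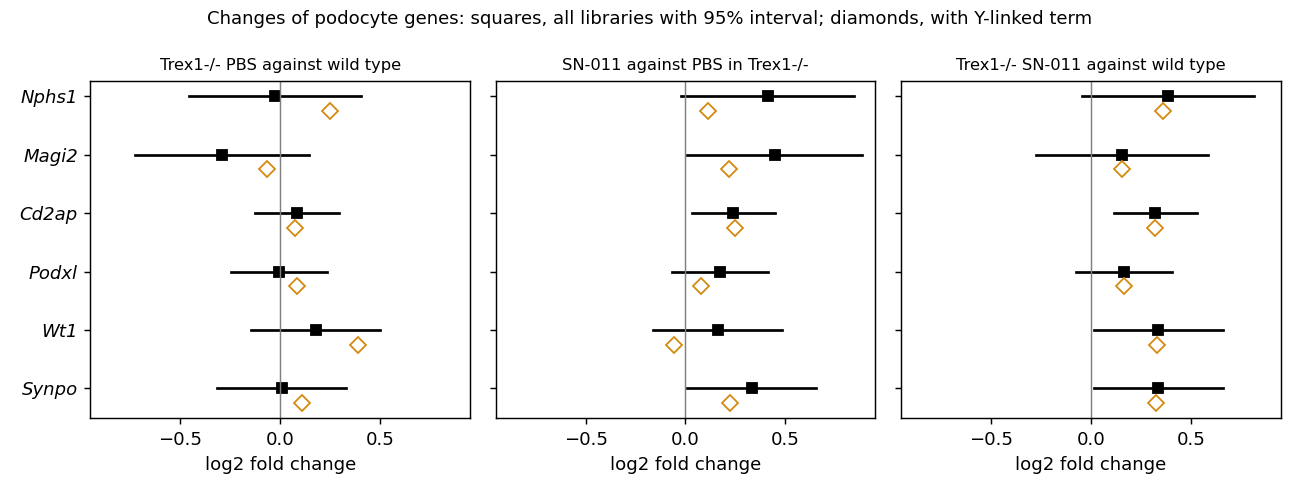
Log2 fold change of each gene in the 3 comparisons (squares, with 95% intervals) and the same change with a term for Y-linked reads in the fit (diamonds). In PBS against wild type the squares lie on both sides of 0, and in both contrasts with SN-011 they lie above 0. In SN-011 against PBS the diamond of Wt1 lies below 0, at -0.06.

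In the SN-011 group, replicate 2, the library with Y-linked reads, was the lowest of the 3 for 5 of the 6 genes and the highest for Cd2ap. Among the libraries without Y-linked reads, Nphs1 averaged 45.8 CPM in SN-011 replicates 1 and 3 and 31.7 CPM in wild-type replicates 1 and 2, a log2 ratio of 0.53. The same ratio was 0.48 for Synpo, 0.39 for Wt1, 0.22 for Cd2ap, 0.20 for Podxl and 0.19 for Magi2. Among the libraries with Y-linked reads, SN-011 replicate 2 against wild-type replicate 3 gave 0.54 for Cd2ap, 0.22 for Wt1, 0.10 for Podxl, 0.09 for Magi2, 0.02 for Synpo and 0.01 for Nphs1. In the same kind of library, SN-011 replicate 2 against the 3 PBS libraries gave 0.35 for Cd2ap and 0.19 for Magi2. For Synpo it gave 0.06, for Podxl 0.05, for Nphs1 -0.07 and for Wt1 -0.11. With 1 or 2 libraries on a side these are values with no test.

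Within the same kind of library, PBS against wild-type replicate 3 gave a log2 ratio of 0.33 for Wt1, 0.18 for Cd2ap, 0.08 for Nphs1, 0.05 for Podxl, -0.04 for Synpo and -0.10 for Magi2. With a term for Y-linked reads in the fit of all 9 libraries, the change in SN-011 against PBS was 0.11 for Nphs1, 0.08 for Podxl, 0.22 for Synpo, 0.22 for Magi2 and -0.06 for Wt1. For Cd2ap it was 0.25, close to its value without the term. In SN-011 against wild type, the term left Nphs1 at 0.36, Wt1 and Synpo at 0.33, Cd2ap at 0.32, and Podxl and Magi2 at 0.16 and 0.15. In PBS against wild type, Wt1 came to 0.39 (adjusted p = 0.341) and Nphs1 to 0.25 (adjusted p = 0.689), the latter with its sign turned.

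Read on its own, the Y-linked term was -0.41 for Nphs1 (libraries with minus without, log2, SE 0.166, adjusted p = 0.226) and -0.31 for Wt1 (SE 0.127, adjusted p = 0.231). It was -0.32 for Magi2, -0.15 for Synpo, -0.14 for Podxl and 0.02 for Cd2ap, and 0 of the 6 passed at an adjusted p under 0.05, where 3.65% of all genes did. Unadjusted, 2 of 6 passed, against 17.8% of all genes. Since every PBS library has Y-linked reads, this difference is measured only within the wild-type and SN-011 groups.

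Across the 9 libraries the members varied together to different degrees. SN-011 replicates 1 and 3 ranked among the 3 highest for 6 of 6 genes, and SN-011 replicate 2 for 1 of 6. At the other end, PBS replicate 3 was the lowest library for 4 of 6 and wild-type replicate 3 for the other 2. Pearson's r of log2 CPM, a description over 9 libraries that share their scaling, was 0.96 between Nphs1 and Podxl, 0.901 between Nphs1 and Synpo and 0.874 between Podxl and Synpo. It was lower with Cd2ap, at 0.449 to Nphs1 and 0.354 to Magi2, the lowest of the 15 pairs. Spread beyond counting error was largest for Nphs1 in the SN-011 group, with a coefficient of variation of 30.2% where counting alone gives 3.89%.

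Ratios within a library do not depend on the scaling between libraries. The log2 ratio of the Podxl CPM to the Nphs1 CPM was 3.02 ± 0.05 (SD, n = 3) in the wild type and 3.04 ± 0.09 with PBS. With SN-011 it was 2.57, 3.15 and 2.78 in replicates 1 to 3, so Nphs1 was higher relative to Podxl in replicates 1 and 3. The ratio of Cd2ap to Nphs1 was 1.90 ± 0.12 in the wild type and 2.02 ± 0.17 with PBS, and with SN-011 it was 1.48, 2.43 and 1.72. The ratio of Synpo to Nphs1 varied less with SN-011, at 1.08, 1.47 and 1.33, and averaged 1.32 ± 0.15 in the wild type and 1.34 ± 0.11 with PBS. The group ranges overlap for Wt1 and Magi2 as well.

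A list of 65 further podocyte genes gives the surroundings of the 6. Of these, 62 were tested, and Kirrel2 (1 to 7 counts per library), Kirrel3 (3 to 14) and the channel gene Trpc6 (1 to 5) were too low. In PBS against wild type 0 of 62 were called, and without adjustment 3 passed as higher and 4 as lower, with a median log2 fold change of 0.01. In SN-011 against PBS 0 of 62 were called, with 3 higher and 3 lower unadjusted and a median of 0.09. SN-011 against wild type gave 0 called, 6 higher and 3 lower unadjusted, and a median of 0.05. The groups did not overlap for 14, 7 and 11 of the 62, in that order, beside 25.4%, 16.1% and 21.7% of all genes. The shares of all genes at an unadjusted p under 0.05 were 15.2%, 11.4% and 18%, so the counts of this list were near or below those of all genes. In SN-011 against PBS, 39 of the 62 fold changes lay above 1 and 23 below, where 48.9% of all genes lay above. As a whole the list thus leaned upward but did not show the single direction of the 6 genes. Above 1 were 11 of the 15 slit diaphragm and junction genes and 6 of the 7 transcription factors. Of the 11 actin and foot process genes, 4 were above 1.

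By function, the 15 tested slit diaphragm and junction genes had medians of 0.04, 0.11 and 0.12 on the log2 scale in PBS against wild type, SN-011 against PBS and SN-011 against wild type. The 7 transcription factors had 0.03, 0.22 and 0.18, and the 9 surface and matrix receptors -0.06, 0.10 and -0.06. The 11 actin and foot process genes had -0.09, -0.02 and -0.12, the 12 basement membrane and secreted genes 0.03, 0.06 and -0.05, and the 8 other podocyte-enriched genes -0.02, 0.07 and -0.03. The gene classes thus differed in the sign of their medians, and 0 genes were called in any of them.

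Ddn, which encodes dendrin of the slit diaphragm, averaged 15.2, 15.5 and 15.4 CPM in wild type, PBS and SN-011, with log2 changes of 0.03, -0.01 and 0.02. Rhpn1, a podocyte-enriched gene, averaged 52.5, 51.4 and 48.9 CPM and was highest in wild-type replicate 3, at 73.8 CPM. Cdkn1c, which encodes the cell cycle inhibitor of mature podocytes, had 24.0, 21.8 and 21.4 CPM in the wild type and 16.5, 14.5 and 18 CPM with PBS, groups that did not overlap (log2 fold change -0.45, SE 0.159, adjusted p = 0.208).

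The largest changes in the list at an unadjusted p under 0.05 went in both directions. Anln, which encodes the actin-binding protein anillin of dividing cells, was 1.27, 0.903 and 2.89 CPM in the wild type and 4.14, 4.79 and 5.35 CPM with PBS (log2 fold change 1.52, SE 0.529, adjusted p = 0.207). Npnt, which encodes the basement membrane protein nephronectin, was 344, 419 and 295 CPM in the wild type and 241, 247 and 236 CPM with PBS (-0.55, SE 0.148, adjusted p = 0.106). Both had groups that did not overlap, and both were called under some other settings. Tcf21, a transcription factor of podocytes and stroma, had 25.2, 24.9 and 24.2 CPM with PBS and 16.7, 10.8 and 17.7 CPM with SN-011 (-0.71, SE 0.199, adjusted p = 0.254).

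Pdlim2, of the actin cytoskeleton, had 22.5, 20.0 and 19.3 CPM with PBS and 10.9, 17.1 and 12.5 CPM with SN-011 (-0.61, SE 0.158, adjusted p = 0.244). Tcf21 and Pdlim2 thus lay in the opposite direction from the 6 members in this comparison, with no overlap between the groups. Thsd7a, which encodes a podocyte surface antigen of membranous nephropathy, had 16.7, 17.7 and 13.8 CPM in the wild type, 18.3, 16.2 and 11.9 CPM with PBS and 26.1, 18 and 24.9 CPM with SN-011. Its change was 0.57 in SN-011 against PBS (SE 0.186, adjusted p = 0.298) and 0.51 in SN-011 against wild type (SE 0.185, adjusted p = 0.187). Sema3g, a semaphorin secreted by podocytes, was 0.49 in SN-011 against wild type (SE 0.218, adjusted p = 0.274), with 149, 103 and 166 CPM against 80.9, 85.2 and 132 CPM. Tcf21, with 26.6, 19.4 and 17.1 CPM in the wild type, went the other way in that comparison, at -0.48, with groups that overlapped.

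**Figure D4:**
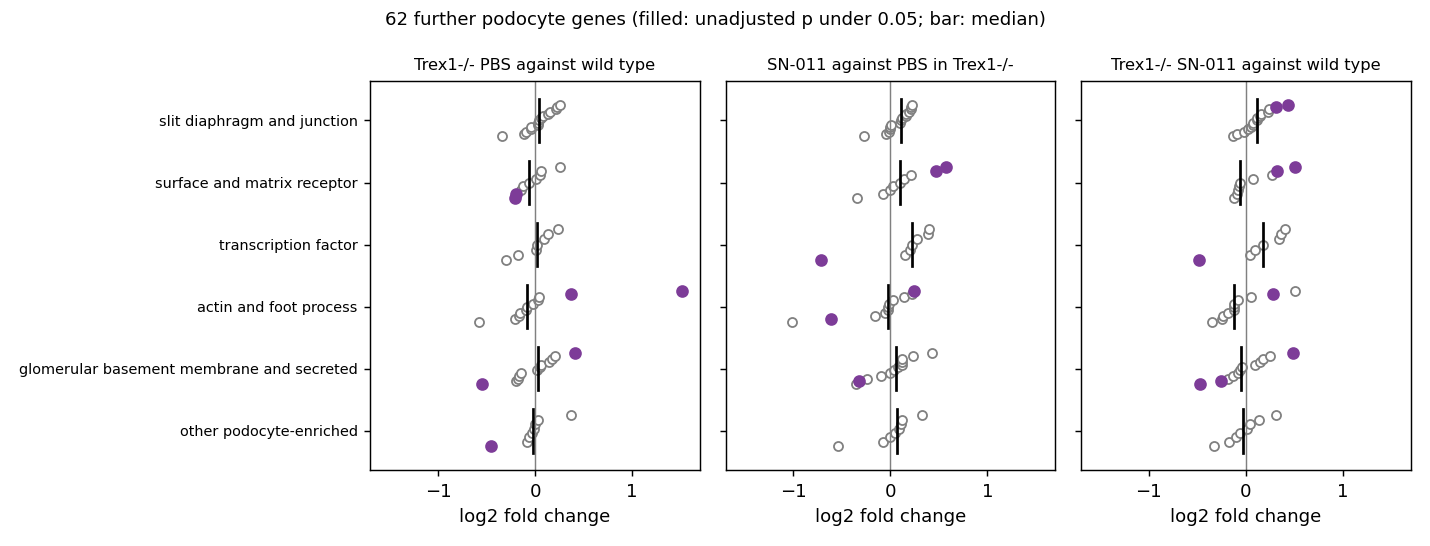
Log2 fold changes of the 62 further podocyte genes tested, by function, in the 3 comparisons. Filled points have an unadjusted p under 0.05, and bars are class medians, which run from -0.12 to 0.22.

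The genes whose profile over the 9 libraries was most like the mean profile of the 6 members, among 14836 genes that averaged 1 CPM or more, were Arf6 (Pearson's r 0.96), P2ry1 (0.959), Thsd7a (0.958) and Smad7 (0.957). Fam120b, Utrn, Gps2, Plekha1, Zbtb46 and Erbb4 followed, at 0.952 to 0.944. Of these 10, Thsd7a is in the podocyte list, and 3 of the 100 most like genes are, where the 62 list genes make up 0.418% of the 14836. With Nphs1 alone as the profile, Gps2 came first at 0.983, and 0 of the 10 and 5 of the 100 most like genes were in the podocyte list. These are descriptions over 9 libraries that share their scaling, with no test.

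**Figure D5:**
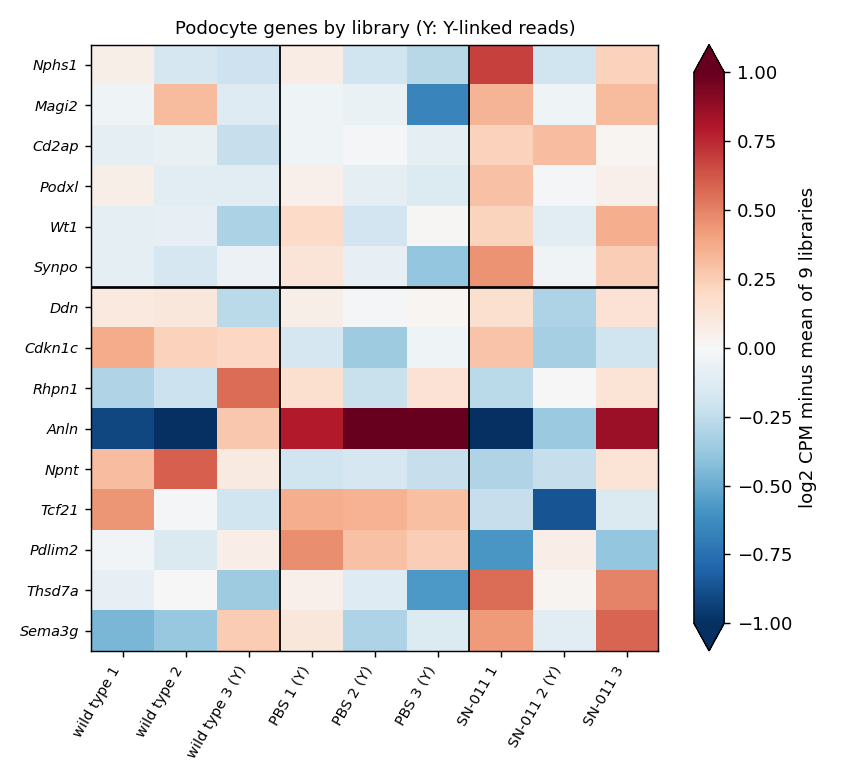
Log2 CPM of the 6 genes (above the line) and of the named podocyte genes (below it) in each library, minus the mean over 9 libraries. The colour scale stops at -1 and 1, which Anln passes. Thsd7a is high in SN-011 replicates 1 and 3 like the 6 genes, while Tcf21 and Pdlim2 are lower in these libraries than in the PBS libraries.

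Markers of the neighbouring cell types are given beside these results. The summed CPM of 8 glomerular endothelial genes was 580 to 638 in the wild type, 569 to 642 with PBS and 537 to 661 with SN-011, with 0 of 8 called in any comparison. The 7 mesangial genes summed to 171 to 265, 209 to 258 and 197 to 224 CPM, with 1 called, Des, lower in SN-011 against wild type. The 4 parietal epithelial genes summed to 207 to 249, 211 to 223 and 220 to 291 CPM, with 0 called. None of these glomerular sums showed SN-011 replicates 1 and 3 as the pair of highest libraries. The 6 proximal tubule genes summed to 9150 to 9430, 7870 to 9270 and 7940 to 9220 CPM, with 1 called, Slc5a2, lower in PBS against wild type. The 6 distal nephron genes summed to 11000 to 12600, 9800 to 10600 and 10200 to 11300 CPM, with 0 called.

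Leukocyte genes, 5 in number, summed to 20.4 to 27.7, 38.3 to 47.2 and 20.5 to 38.7 CPM, with 0 called, and the B cell gene Cd79a was near 0 throughout, at 0.17 to 0.759 CPM. The 3 adipocyte genes summed to 20.2 to 79.4, 9.93 to 33.7 and 9.04 to 34.3 CPM, with 0 called, and the 7 injury genes to 1660 to 1990, 1080 to 1420 and 957 to 1970 CPM, with 0 called. SN-011 replicate 2 was the lowest library in the injury sum, at 957 CPM, while SN-011 replicates 1 and 3 were at 1650 and 1970 CPM. The summed CPM of the 6 members themselves was 474 to 522 in the wild type, 464 to 540 with PBS and 543 to 658 with SN-011. The part of these cell types in the members' values was not tested.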

How the data were processed

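PolyA-selected kidney RNA was sequenced in pairs as 9 libraries. The authors trimmed reads with Trimmomatic, aligned them with HISAT2 to mm10 (per the labels) and deposited raw featureCounts counts per gene, from read pairs that mapped uniquely. Versions and the strand setting are not given in the sources used here. Of 54532 gene identifiers, 54409 matched GENCODE vM21 (GRCm38), which gave symbols, positions and exon lengths. The deposited counts went into edgeR 4.0.16 under R 4.3.3. Low genes were removed by filterByExpr (at least 10 counts, 15 in total), libraries were scaled by TMM, and 1 quasi-likelihood model with a mean per group was fitted to all 9 libraries. P-values were adjusted by Benjamini-Hochberg over 16646 genes and called under 0.05. Standard errors were derived from the F statistic, and 95% intervals from its degrees of freedom. The fit was tested on simulated data.

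CPM and RPKM were computed from the counts with TMM-scaled library sizes. Depth ran from 16118813 to 21928965 counts, and intervals of counts cover counting error only. Likeness was Pearson's r of log2 CPM (prior count 2). Named genes of the podocyte list were Kirrel2, Ddn, Cdkn1c, Rhpn1 and 2 that are not reported here, plus, in each comparison, the 3 with the largest change at an unadjusted p under 0.05 and a mean of at least 1 CPM. The members, gene lists, motifs, rules and tests were chosen with earlier results of these data known. The difference with Y-linked reads was added after seeing the data. Other settings were 2 other scalings, 2 other filters, the DESeq2 1.42.0 Wald test, edgeR's exact test, limma-voom (limma 3.58.1), a fit of 6 libraries, a replicate block, a Y-linked term and leaving out each library.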

Additional observations from a re-analysis of the deposited data

How the results depend on the processing

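Of 342 values of the 18 member changes over 19 other settings, 0 were called, 325 kept their sign and 17 turned it. The smallest adjusted p was 0.0508, for Cd2ap in SN-011 against wild type, and the largest for that change was 0.275. In PBS against wild type, the Y-linked term gave 0.249 for Nphs1 and 0.085 for Podxl. Synpo was -0.001 with DESeq2 size factors and with DESeq2's Wald test, -0.019 with upper-quartile factors, -0.008 with limma-voom and -0.004 with the replicate block. Leaving out 1 library gave -0.141 to 0.055 for Nphs1, -0.069 to 0.047 for Podxl and -0.127 to 0.127 for Synpo. In SN-011 against PBS, Wt1 was -0.057 with the Y-linked term. The cause was not tested. The median of the members stayed above 0 in all settings in SN-011 against PBS (0.167 to 0.365) and against wild type (0.176 to 0.357, lowest without SN-011 replicate 1).

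The podocyte list, with 0 called above, had in PBS against wild type 2 called with no filter beyond 1 read (Npnt and Anln), 3 by DESeq2's Wald test (Npnt, Agrn and Ezr), 2 in the fit of 6 libraries (Npnt and Htra1) and 0 to 1 with a library left out (1 without wild-type replicate 3, PBS replicate 3 or SN-011 replicate 2). In SN-011 against PBS the Wald test called 1 (Itga3), and leaving out a library gave 0 to 4, the 4 without SN-011 replicate 2 being Col4a3, Nes, Htra1 and Pdlim2. In SN-011 against wild type the Wald test called 2 (Nck2 and Npnt), and leaving out a library gave 0 to 2 (Nes and Htra1 without SN-011 replicate 2).

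Counts over all genes, 313, 0 and 213 in PBS against wild type, SN-011 against PBS and SN-011 against wild type, were 726, 183 and 816 by the Wald test, 686, 127 and 597 by the exact test and 707, 127 and 607 with no filter. The fit of 6 libraries gave 751, 0 and 43, and the Y-linked term 198, 0 and 656. With a library left out they ran from 153 (without PBS replicate 2) to 774, from 0 to 519 and from 38 (without wild-type replicate 1) to 376, the highest each time without SN-011 replicate 2. The replicate block gave 312, 0 and 231 and changed no call of a member. Whether replicate numbers pair the libraries is not in the labels and was not settled here. Deviations of same-numbered libraries correlated at -0.294 to 0.242 and those of other pairs at -0.368 to 0.38. Between PBS and SN-011 the same-numbered pairs stood at 0.198, 0.242 and 0.0981, and the other pairs reached at most 0.0914. Between wild type and SN-011 the same-numbered pairs stood at 0.238, -0.294 and -0.143. With 107 to 289 counts a library, Magi2 carried the most counting error.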

Other observations

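Beside the podocyte genes, 2 markers of other cell types were called, and a few came near the threshold. Des, which encodes desmin, an intermediate filament of mesangial cells that injured podocytes also make, averaged 16.7, 12.7 and 9.48 CPM in wild type, PBS and SN-011. It was called lower, close to the threshold, in SN-011 against wild type (log2 fold change -0.82, SE 0.169, adjusted p = 0.0486), where 1.28% of all genes were called. The 7 mesangial genes did not share this direction, with 4 above 0 and 3 below in that comparison. Among those above was Acta2, at 0.58 (SE 0.156, adjusted p = 0.1), with no overlap between the groups. Akap12, a scaffold gene listed for parietal epithelium, averaged 34.3, 33.8 and 68.4 CPM and did not pass, at 0.997 (SE 0.228, adjusted p = 0.0678) in SN-011 against wild type and 1.02 (SE 0.229, adjusted p = 0.21) in SN-011 against PBS, although its groups did not overlap in either. The parietal epithelial list did not follow it, with 2 of 4 genes above 0 and 2 below in each of these comparisons. Cldn1 was at -0.54 (SE 0.259, adjusted p = 0.305) in SN-011 against wild type. Tek, which encodes the angiopoietin receptor of endothelium, averaged 68.8, 54.7 and 56.4 CPM, at -0.33 (SE 0.0774, adjusted p = 0.0646) in PBS against wild type and -0.29 (SE 0.0773, adjusted p = 0.0988) in SN-011 against wild type, with no overlap in either. Ptprc, the leukocyte gene that encodes CD45, was at 0.91 (SE 0.204, adjusted p = 0.0557) in PBS against wild type, with 20 against 10.7 CPM and no overlap. Slc5a2, which encodes the glucose carrier SGLT2 of the early proximal tubule, was called lower in PBS against wild type, at 239 against 392 CPM (-0.71, SE 0.126, adjusted p = 0.0163), where 1.88% of all genes were called. Itga3, which encodes the integrin that anchors podocytes to the basement membrane and was named after its values were seen, had the smallest p of the podocyte list in SN-011 against PBS, at 108 against 78.3 CPM (0.47, SE 0.112, adjusted p = 0.23).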
